A study of Mus musculus with 6 samples.

Results

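Complement is a cascade of proteins that marks microbes, immune complexes and dying cells for removal. The classical pathway starts when C1q, a bundle of A, B and C chains, binds its target and activates the proteases C1r and C1s, which cut C4 and C2. The alternative pathway assembles a convertase from C3 and factor B that properdin stabilizes. Both cut C3, whose fragments coat the target and signal through receptors on phagocytes, while proteins such as decay-accelerating factor (CD55) protect the host cell surface. Most circulating complement comes from the liver, but macrophages are a main source of C1q and also make properdin, C3 and factor B.

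The 9 complement genes described here are C1qa, C1qb, C1qc, C3, Cfb, Cfp, C3ar1, C5ar1 and Cd55, taken by name from the 54532 genes of a raw count table, and all 9 had enough counts to be tested. The libraries were made from messenger RNA of mouse peritoneal macrophages cultured in serum-containing medium, with 3 libraries labelled as negative control and 3 as Rfx1 overexpression. Rfx1 encodes a DNA-binding protein of the RFX family. The sources used here do not say how it was introduced, what the control cells received, or the strain, age and number of mice. P-values therefore measure the spread between these libraries, which may be technical. Control and overexpression below mean the label of a library. Levels are counts scaled to the total of each library (CPM), and log2 changes are overexpression minus control with their standard error (SE) from edgeR's quasi-likelihood test, called at an adjusted p under 0.05.

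Some libraries went against their label or stood apart from others with it. Total counts ran from 16461277 to 18795575. Rfx1 itself was at 57.6, 10.97 and 14.8 CPM in controls 1, 2 and 3 and at 40.8, 36.4 and 23.2 CPM in overexpression 1, 2 and 3, so that the library labelled control 1 held the most (log2 change 0.27 ± 0.58 SE, adjusted p = 0.80). Lyz2, the lysozyme gene that marks macrophages, was at 15672, 38702 and 28352 CPM in the controls but at 44.7, 40.8 and 29281 CPM with overexpression. The libraries labelled overexpression 1 and 2 thus held little Lyz2 and overexpression 3 as much as the controls. Lyz2 is the locus of the widely used LysM-Cre allele, which disrupts it. The labels name no Cre, allele or strain for any library, and whether overexpression 1 and 2 differ in genotype from the other libraries was not tested. For the named complement genes that passed with all libraries, the log2 change in overexpression 3 alone is also given below. Without control 1 the calls of the 9 genes were those made with all libraries. Of 12 macrophage markers, 3 rose (Adgre1, Itgam and Cd14) and none fell, and their summed level without Lyz2 was 3476 to 4253 CPM in the controls and 5763 to 8883 CPM with overexpression. Cd14 alone made up much of the higher sum, with a mean of 220 CPM under the control label but 3238 CPM under overexpression. Whether the share of macrophages differed between the labels was not tested.

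Of the 9 genes, C3 and Cfb rose and C1qa, C1qb, C1qc, C5ar1 and Cd55 fell, while Cfp and C3ar1 did not pass. Among the 13454 genes tested, 6.90% were called higher and 5.97% lower. The median log2 change of the 9 was -2.14, beside -0.0060 over all genes tested. In 8 of the 9 the lowest library of one label lay above the highest of the other, the exception being Cfp, and such separation was seen in 33.4% of all genes tested.

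**Figure D1:**
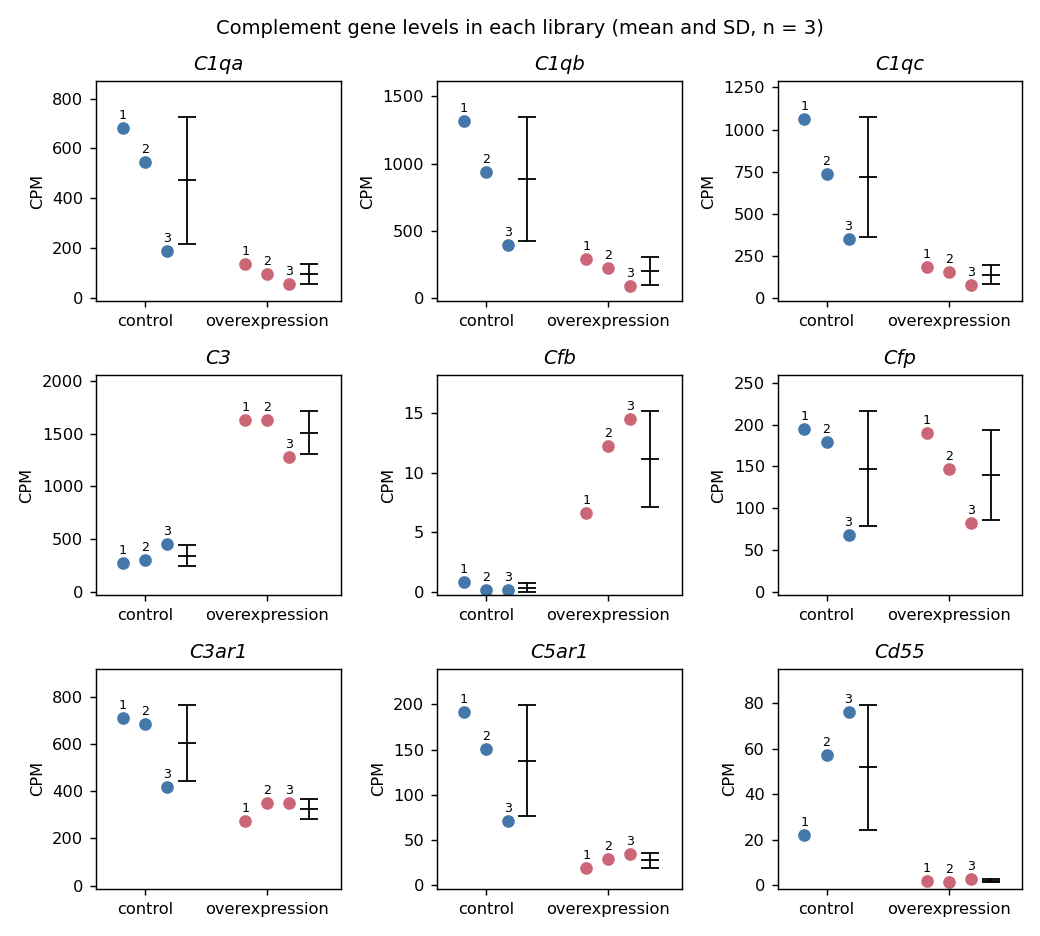
CPM of each complement gene (y axis, linear from 0) in the control and overexpression libraries (x axis). Points are libraries, numbered by replicate, and bars are the mean and SD of 3. C3 and Cfb lie higher with overexpression, the C1q genes, C5ar1 and Cd55 lie lower, and Cfp overlaps.

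The C1q genes fell together, by 4.41- to 5.21-fold. They lie side by side on the minus strand of chromosome 4, within 18675 bases of mm10 (136880129 to 136898803). C1qa (ENSMUSG00000036887), which encodes the A chain, was at 681, 544 and 190 CPM in controls 1, 2 and 3 and at 137, 97.7 and 54.5 CPM in overexpression 1, 2 and 3. The group means were 472 ± 254 and 96.3 ± 41.1 CPM (SD, n = 3), a log2 change of -2.29 ± 0.49 (adjusted p = 0.016). Every overexpression library was lower than every control, and in both groups replicate 3 was the lowest.

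C1qb (ENSMUSG00000036905), the B chain gene, had the highest level of the 3. It was at 1315, 939 and 395 CPM in the controls and at 289, 222 and 89.7 CPM with overexpression, a log2 change of -2.14 ± 0.52 (adjusted p = 0.026). The order of the libraries was that of C1qa. C1qc (ENSMUSG00000036896), the C chain gene, was at 1065, 733 and 350 CPM and at 182, 155 and 76.2 CPM, a log2 change of -2.38 ± 0.45 (adjusted p = 0.0087). Its libraries again fell in the same order, and its groups did not overlap.

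The balance between the chains moved little beside these changes. The ratio of C1qa to C1qb CPM was 0.518, 0.580 and 0.480 in the controls and 0.472, 0.439 and 0.607 with overexpression. That of C1qc to C1qb was 0.810, 0.781 and 0.886 and then 0.628, 0.696 and 0.849. The groups overlapped in both ratios, and differences of the mean log2 ratio of -0.06 and -0.20 had p = 0.7 and 0.3 in 2-sided exact permutation tests, in which 3 against 3 libraries cannot go below 0.1.

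Leaving out 1 library ended some C1q calls while the change stayed about as large. Without overexpression 2 the log2 change was -2.29 for C1qa, -2.21 for C1qb and -2.46 for C1qc (adjusted p = 0.077, 0.099 and 0.050, the last just above the threshold). Without control 2 it was -2.17 for C1qa and -2.08 for C1qb (adjusted p = 0.063 and 0.086), and without overexpression 1 it was -2.48 for C1qb (0.052). Of all genes, 250 were called lower without overexpression 2 and 280 without control 2, against 803 with all libraries. Overexpression 3, which is close to the controls in Lyz2, was the lowest library for all 3 genes, and set alone against the controls it gave log2 changes of -3.11, -3.29 and -3.22 (adjusted p = 0.13, 0.085 and 0.069). In bulk RNA, fewer cells that make C1q and less C1q RNA per cell cannot be told apart. Of 12 macrophage markers, 3 rose and none fell. Adgre1, which rose, was at 343, 286 and 154 CPM in the controls and at 528, 649 and 846 CPM with overexpression (adjusted p = 0.024). Csf1r, Spi1 and Aif1 were among those that did not pass. Csf1r, which encodes the receptor for macrophage colony-stimulating factor, was at 715, 346 and 235 CPM in the controls and at 453, 516 and 652 CPM with overexpression (adjusted p = 0.63). Spi1 was at 296, 250 and 234 CPM and then 197, 151 and 172 CPM (adjusted p = 0.10). Aif1 was at 27.6, 17.7 and 5.02 CPM and then 10.3, 5.16 and 5.61 CPM (adjusted p = 0.17). The summed level of 8 B cell markers was 279, 202 and 134 CPM in controls 1, 2 and 3 and 151, 146 and 94.8 CPM in the overexpression libraries, lowest in replicate 3 of each label like C1q. None of the 8 passed, and the part of these cells in the C1q result was not tested.

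Of the genes outside the complement list with a mean of at least 10 CPM, the 3 whose log2 CPM followed C1qa most closely over the 6 libraries were Gdf15, Gusb and Adi1, with Pearson r of 0.988, 0.987 and 0.986 among 8242 genes searched. The other C1q genes followed it as closely, C1qb at 0.992 and C1qc at 0.992. These values are descriptions over 6 libraries that include the difference between the labels.

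Stretches upstream of 2 C1q start sites are shown because these genes fell together. They come from RefSeq on GRCm38.p6, on the minus strand, for C1qb at chr4:136886201-136886450 and for C1qc at chr4:136893066-136893164, and stop before the first annotated exon. That of C1qc therefore covers bases -250 to -152 from the RefSeq start site, and that of C1qb bases -250 to -1. Capitals mark GAGGAA, the core of sites bound by the macrophage factor PU.1, read on either strand.
C1qb: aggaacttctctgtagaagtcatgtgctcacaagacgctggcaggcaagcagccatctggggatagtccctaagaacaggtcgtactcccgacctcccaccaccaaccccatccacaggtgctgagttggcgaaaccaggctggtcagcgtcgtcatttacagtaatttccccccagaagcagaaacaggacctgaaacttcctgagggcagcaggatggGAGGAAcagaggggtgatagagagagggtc
C1qc: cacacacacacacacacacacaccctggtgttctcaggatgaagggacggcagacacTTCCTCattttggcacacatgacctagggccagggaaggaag

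RefSeq windows of 300 bases around the start site were on hand for 7 of the 9 genes. Besides GAGGAA they were searched on both strands for GTTGCC, part of the X-box that RFX factors bind, for TTGCNNAA (C/EBP), for GGANTTTCC (NF-kB) and for GAAANNGAA (interferon response element). Of all 32851 windows, 28.3% held GAGGAA, 12.5% GTTGCC, 10.8% TTGCNNAA, 1.25% GGANTTTCC and 8.56% GAAANNGAA. The C1qb and C1qc windows held 1 GAGGAA each, at bases -30 and -193 from the start site, and no other of these motifs. The Cfp window held GAGGAA at bases 7 and 23 past the start site and that of C5ar1 GAAANNGAA at base -66, while that of C3ar1 held none. No matches of different motifs overlapped in these 7 windows. A match is a match of letters only.

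The proteases that act with and after C1q did not move with it. C1ra, which encodes C1r, rose from 24.1 ± 7.59 to 118 ± 32.0 CPM (log2 change 2.30 ± 0.31, adjusted p = 0.0021) and also passed in overexpression 3 alone (1.78, adjusted p = 0.045), the only other complement gene outside the 9 that did. Of the 50-base words in its transcripts, 50.8% occur in other genes, mainly its copy C1rb, which was at 0.118 CPM or less in every library. C1s1, the main C1s gene, was at 43.2 ± 23.2 and 57.8 ± 17.7 CPM (adjusted p = 0.56). The ratio of C1ra to C1s1 CPM was 0.840, 0.593 and 0.452 in the controls and 2.09, 1.96 and 2.15 with overexpression (2-sided exact permutation p = 0.1, the smallest possible). Its copy C1s2 had 3, 10 and 3 counts in the controls and 30, 34 and 29 with overexpression (log2 change 2.74 ± 0.63, adjusted p = 0.020). The adjusted p rose to 0.059 without control 1, 0.092 without control 3, 0.055 without overexpression 1 and 0.081 without overexpression 2. In overexpression 3 alone the log2 change of C1s2 was 2.60.

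C2, the protease that joins the classical convertase, rose from 1.71 ± 0.420 to 4.31 ± 0.380 CPM (adjusted p = 0.045). Its log2 change was 1.32 ± 0.37, and 1.19 in overexpression 3 alone. It did not pass when any library but overexpression 3 was left out (adjusted p = 0.062 to 0.17), nor with upper-quartile scaling (0.051), library size only (0.089) or no filter on low counts (0.054). It shares 41.5% of its 50-base words with other genes. C4b was at 31.7 ± 15.3 and 23.4 ± 8.80 CPM (adjusted p = 0.49) and its near copy C4a at 0.334 ± 0.208 and 0.790 ± 0.570 CPM (adjusted p = 0.37). The copies share 34.6% of the 50-base words of C4b.

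C3 and Cfb, the partners of the alternative convertase, rose under all 15 alternative settings as well. C3 (ENSMUSG00000024164, chromosome 17, 57203970 to 57228136, minus strand) encodes the central component of all pathways. It was at 268, 304 and 453 CPM in controls 1, 2 and 3 and at 1628, 1633 and 1276 CPM in overexpression 1, 2 and 3, which sets the groups far apart. The means were 342 ± 98.2 and 1513 ± 205 CPM, a 4.43-fold rise (log2 change 2.15 ± 0.29, adjusted p = 0.0021). Under the alternatives its log2 change was 1.91 to 2.39, with overexpression 3 alone at the low end (1.91, adjusted p = 0.038).

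Cfb (ENSMUSG00000090231, chromosome 17, 34856374 to 34862518, minus strand) encodes factor B, the protease of the alternative convertase. It was nearly silent in the controls, with 17, 2 and 2 counts, and had 97, 216 and 246 counts with overexpression. These are 0.803, 0.106 and 0.109 CPM against 6.64, 12.2 and 14.5 CPM, and overexpression 3 was the highest library. The log2 change was 4.96 ± 0.69 (adjusted p = 0.0023), or 5.35 with overexpression 3 alone (adjusted p = 0.026), and it passed in all 15 alternatives. Without control 1, the highest control, it was 6.60. Cfb and C2 lie 85 bases apart in the MHC region of chromosome 17. An annotated read-through gene over both, Gm20547, shares 73.0% of the 50-base words of Cfb and was listed at 0 counts in all 6 libraries. The sources used here do not say how reads in the shared part were assigned, so the level of Cfb may be understated.

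Cfp (ENSMUSG00000001128, chromosome X, 20925454 to 20931555, minus strand), which encodes properdin, did not pass. It was at 195, 179 and 68.3 CPM in the controls and at 190, 147 and 82.3 CPM with overexpression. Both groups held high libraries, 1 and 2, and a low library, 3. The log2 change was -0.08 ± 0.41 (adjusted p = 0.92), and it passed under none of the alternatives, with changes from -0.83 to 0.38.

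The 3 genes whose pattern over the 6 libraries was most like that of C3 were Msantd3, Clec1b and Rab3ip, with Pearson r of 0.997, 0.993 and 0.990. Clec1b encodes the C-type lectin receptor CLEC-2 and was at 3.40, 4.74 and 5.18 CPM in the controls and at 24.0, 23.6 and 17.3 CPM with overexpression. Among the complement genes, C3 ran with Cfb at 0.883 and opposite to C5ar1 at -0.975.

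The sequence upstream of C3 is shown because C3 is the most abundant complement transcript that rose. It lies at chr17:57228137-57228386 of GRCm38.p6 (RefSeq, minus strand). Capitals mark GTTGCC at base -82 and TTGCGAAA, a match to TTGCNNAA, at base -45 from the start site.
C3: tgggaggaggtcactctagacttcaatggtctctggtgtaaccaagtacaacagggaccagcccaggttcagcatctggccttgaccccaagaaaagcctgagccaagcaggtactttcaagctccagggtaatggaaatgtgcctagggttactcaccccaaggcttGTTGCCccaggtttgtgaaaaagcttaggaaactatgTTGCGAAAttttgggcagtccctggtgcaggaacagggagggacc

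The receptors for the C3a and C5a fragments differed in how far they moved. C5ar1 (ENSMUSG00000049130, chromosome 7, 16246743 to 16259540, minus strand), the receptor through which C5a draws and activates phagocytes, was at 192, 151 and 70.9 CPM in controls 1, 2 and 3. With overexpression it was at 18.8, 29.3 and 34.9 CPM, below every control. It fell 4.99-fold, from 138 ± 61.6 to 27.7 ± 8.18 CPM (log2 change -2.32 ± 0.38, adjusted p = 0.0046), and passed whichever library was left out. With overexpression 3 alone the log2 change was -1.97 (adjusted p = 0.16).

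C3ar1 (ENSMUSG00000040552, chromosome 6, 122847138 to 122856161, minus strand), the C3a receptor gene, was at 708, 686 and 417 CPM in the controls and at 275, 349 and 348 CPM with overexpression. The groups did not overlap, but control 3 lay close to the overexpression libraries and the log2 change of -0.90 ± 0.27 did not pass (adjusted p = 0.059). It passed in 7 of 15 alternatives, among them DESeq2 (adjusted p = 0.011), limma-voom (0.038) and library size only (0.039), with log2 changes of -1.11 to -0.64. The ratio of C5ar1 to C3ar1 CPM was 0.271, 0.220 and 0.170 in the controls and 0.0685, 0.0840 and 0.10 with overexpression, a mean fall of 2.60-fold with no overlap (2-sided exact permutation p = 0.1, the smallest possible).

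Other complement receptors moved in both directions. C5ar2, a second C5a receptor next to C5ar1 on chromosome 7, fell from 4.24 ± 0.369 to 0.834 ± 0.667 CPM (log2 change -2.33 ± 0.55, adjusted p = 0.022). The adjusted p rose to 0.095 without control 2, 0.054 without control 3, 0.056 without overexpression 1 and 0.11 without overexpression 2. Vsig4, a receptor of resident macrophages for C3 fragments, had 44, 101 and 25 counts in the controls and 2, 7 and 2 with overexpression (log2 change -3.69 ± 0.75, adjusted p = 0.012, and 0.073 without control 2). Cd93, first described as a C1q receptor, fell from 380 ± 41.5 to 137 ± 50.1 CPM (log2 change -1.47 ± 0.28, adjusted p = 0.0094, and 0.069 without overexpression 2). In overexpression 3 alone the log2 changes were -1.40 for C5ar2, -4.56 for Vsig4 and -0.96 for Cd93.

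The integrin chains of complement receptors 3 and 4 went apart. Itgam, the alpha chain of receptor 3, rose from 242 ± 50.7 to 473 ± 39.1 CPM (log2 change 0.97 ± 0.24, adjusted p = 0.026), and Itgax, that of receptor 4, fell from 185 ± 70.5 to 53.4 ± 38.7 CPM (-1.79 ± 0.49, adjusted p = 0.044). Neither passed when control 2 or 3 or overexpression 1 or 2 was left out (adjusted p = 0.052 to 0.14 for Itgam and 0.10 to 0.15 for Itgax), nor Itgam with library size only (0.069). Itgax was at 33.3, 28.9 and 98.0 CPM in overexpression 1, 2 and 3. In overexpression 3 alone the log2 changes were 0.84 for Itgam and -0.91 for Itgax. Itgb2, their shared beta chain, was at 1867 ± 164 and 2039 ± 352 CPM (adjusted p = 0.79).

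Cd55 (ENSMUSG00000026399, chromosome 1, 130439027 to 130462744, minus strand), which encodes decay-accelerating factor, had the largest fall of the 9 genes. It was at 22.1, 57.3 and 76.2 CPM in controls 1, 2 and 3 and at 2.05, 1.42 and 2.66 CPM in overexpression 1, 2 and 3. The lowest control held 468 counts and the highest overexpression library 45. The fall was 25.4-fold, from 51.9 ± 27.5 to 2.04 ± 0.620 CPM (log2 change -4.66 ± 0.49, adjusted p = 5.8e-04). It passed in every alternative with at least 2 libraries per group, with log2 changes of -5.14 to -4.29. In overexpression 3 alone it was -4.28 (adjusted p = 0.11). The copy Cd55b, which shares words with it, had 0 counts in all 6 libraries, and the antisense gene Gm16083, which touches 2 of its annotated exons, averaged 0.0182 CPM.

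Markers of mesothelial cells, which line the peritoneum, were lower with overexpression, as was Cd55. The summed level of 12 such markers was 31.5, 138 and 190 CPM in controls 1, 2 and 3, in the order of Cd55. With overexpression it was 2.26, 3.12 and 9.80 CPM, not in the order of Cd55. Of the 8 tested, 6 fell and none rose. Upk1b and Muc16 were at 0 in all overexpression libraries, while Upk3b was at 0, 0 and 0.0590 CPM and Msln at 0.342, 0 and 0. The sum of 12 fibroblast markers also had the order of Cd55 in the controls, at 1696, 2908 and 3722 CPM. With overexpression it was 989, 1372 and 3626 CPM. The part of either cell type in the Cd55 result was not tested. C3 was also lowest in control 1 and highest in control 3 among the controls. Every overexpression library held more C3 than any control and had a lower mesothelial sum. The part of mesothelial cells in the C3 result was not tested.

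**Figure D2:**
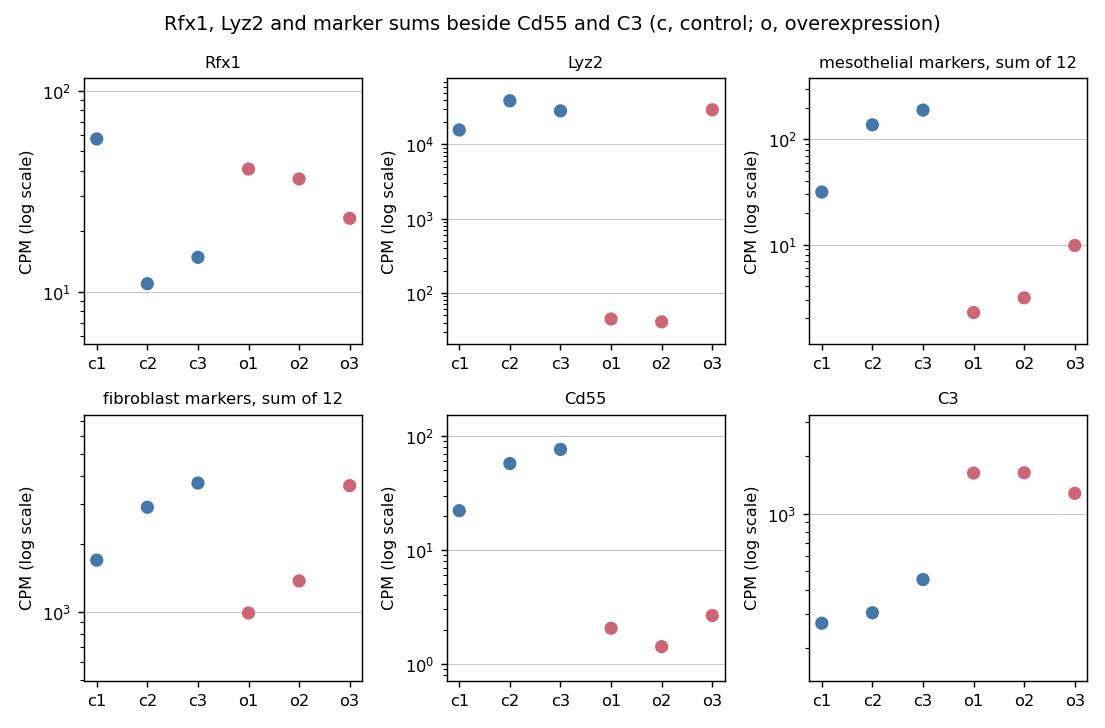
CPM on a log axis (y) of Rfx1, Lyz2, the summed mesothelial and fibroblast markers, Cd55 and C3 in each library (x, c1 to c3 control and o1 to o3 overexpression). Lyz2 is low in o1 and o2 only, the mesothelial sum and Cd55 are higher in every control than in any overexpression library, and fibroblast markers overlap between labels.

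The sequence upstream of Cd55 is shown because it is the gene with the largest fall. It lies at chr1:130462745-130462994 of GRCm38.p6 (RefSeq, minus strand), is all in lower case, and held none of the 5 motifs searched.
Cd55: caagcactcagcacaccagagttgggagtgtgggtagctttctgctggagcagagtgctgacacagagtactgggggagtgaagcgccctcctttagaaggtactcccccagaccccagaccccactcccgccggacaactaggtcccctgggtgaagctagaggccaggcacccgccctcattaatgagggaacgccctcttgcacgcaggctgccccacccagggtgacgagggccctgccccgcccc

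Cr1l, Cd46 and Clu, which also encode regulators, did not pass or were not tested. Cr1l, which encodes the rodent regulator Crry, was at 47.2 ± 2.37 and 46.9 ± 3.51 CPM (log2 change -0.0097 ± 0.19, adjusted p = 0.98), and all 6 libraries lay between 44.2 and 50.9 CPM. Cd46 was at 0.413 CPM or less in every library and was not tested. Clu, which encodes clusterin, a fluid-phase inhibitor of the terminal complex, was at 84.4, 116 and 94.6 CPM in the controls and at 11.2, 16.3 and 70.4 CPM in overexpression 1, 2 and 3, the last near the controls (log2 change -1.59 ± 0.61, adjusted p = 0.13). It passed in 5 of 15 alternatives, with no filter (adjusted p = 8.1e-08), DESeq2 (0.010) and limma-voom (2.8e-04), with a replicate block (0.022) and without overexpression 3 (4.9e-05, log2 change -2.83).

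Of the 54 other complement genes listed, 22 were tested, and 4 of these rose (C1ra, C1s2, C2 and Itgam), 6 fell (among them Colec12, C5ar2, Vsig4, Itgax and Cd93) and 12 did not pass. Their median log2 change was -0.41. Colec12, a collectin that also acts as a scavenger receptor, fell from 90.1 ± 32.8 to 21.8 ± 11.4 CPM (adjusted p = 0.013, but 0.059 without control 2 and 0.074 without overexpression 2). Its log2 change was -2.04 ± 0.42, and -1.41 in overexpression 3 alone. The remaining 32 had too few counts to be tested, and 15 had 0 counts in all 6 libraries, which allows 0.142 to 0.205 CPM in a library at 3 counts, for counting error only. Among those 15 were Mbl1, Mbl2, Cfd, C7, C8a, C8b and C9. Terminal component genes were near absent apart from C8g, at 2.88 ± 1.26 and 2.30 ± 0.362 CPM (adjusted p = 0.68). Fcnb, the ficolin B gene, chosen here after its values were seen, had 0 counts in the controls and 44, 25 and 4 counts in overexpression 1, 2 and 3, or 3.01, 1.42 and 0.236 CPM. The last is close to what 3 counts give in a library.

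**Figure D3:**
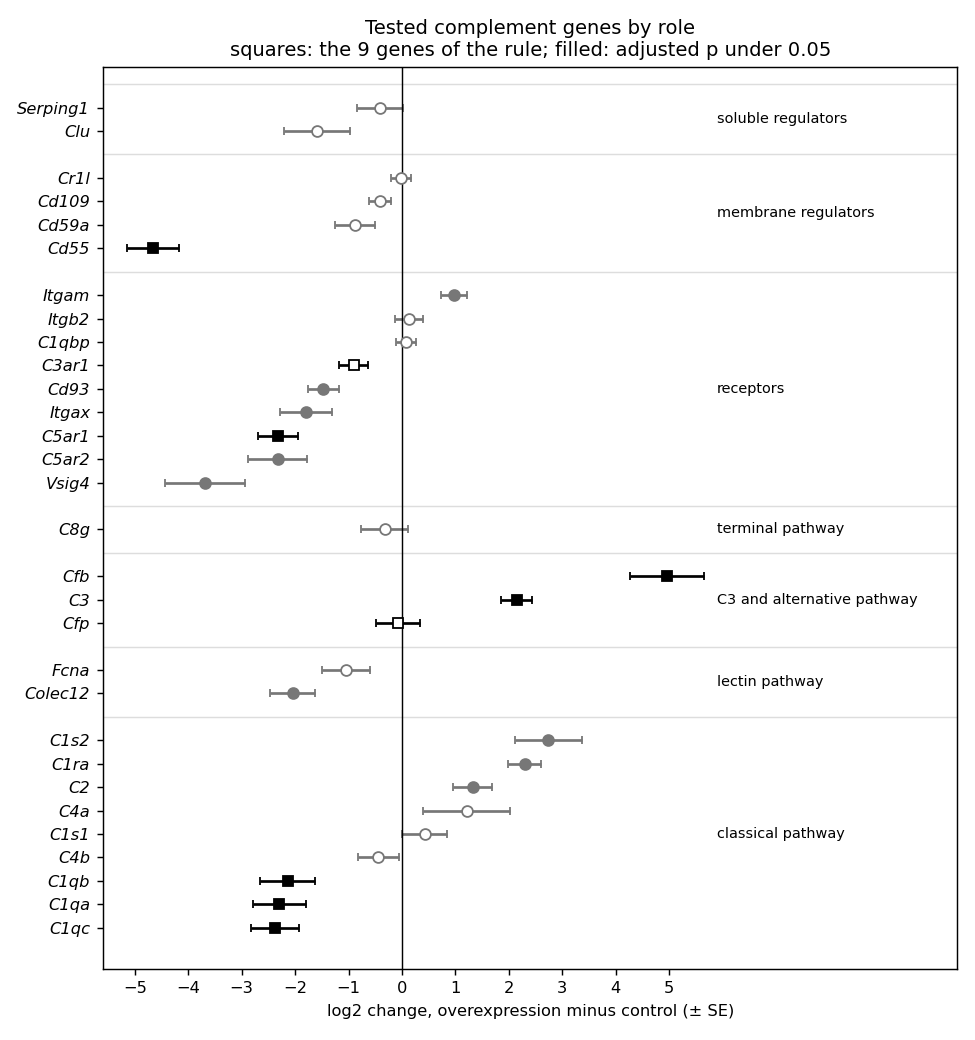
Log2 change, overexpression minus control, with its SE (x axis) for tested complement genes by role (y axis). Squares are the 9 genes of the rule, circles the others, and filled symbols passed at an adjusted p under 0.05. C1q genes lie to the left of C1ra, C1s2 and C2 within the classical pathway.

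Per kilobase of annotated exon, the order of the levels turned over. In the controls C1qb came first at 812 ± 425 CPM per kilobase, then C1qa (454 ± 244), C1qc (371 ± 185), C3ar1 (140 ± 37.7), Cfp (84.9 ± 39.7), C3 (66.4 ± 19.1), C5ar1 (53.7 ± 24.0), Cd55 (10.7 ± 5.66) and Cfb (0.120 ± 0.142). With overexpression C3 came first at 294 ± 39.8, then C1qb (184 ± 93.4), C1qa (92.6 ± 39.5), Cfp (80.5 ± 31.1), C3ar1 (75.2 ± 9.87), C1qc (71.2 ± 28.4), C5ar1 (10.8 ± 3.18), Cfb (3.94 ± 1.44) and Cd55 (0.421 ± 0.128). In the controls C1qa and C1qc, Cfp and C3, and C3 and C5ar1 differed by less than the SD of either. So did each pair of neighbours from C1qa to C1qc with overexpression.

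Other cell type markers were present too, those of fibroblasts at sums of 1696 to 3722 CPM in the controls. Of these sums, Fn1 alone gave 1025, 1602 and 2017 CPM in controls 1, 2 and 3. They were not far from the macrophage sum without Lyz2, but Lyz2 itself was at 15672 to 38702 CPM in the controls. Of 3 tested neutrophil markers S100a8 and Camp rose, and Ly6g was at 0 in all 6 libraries. The neutrophil sums were 43.1 to 69.0 CPM in the control group against 82.2 to 367 CPM under overexpression. S100a8 alone gave 335, 135 and 46.0 CPM of the sums of overexpression 1, 2 and 3, against a control mean of 11.4 CPM. Csf3r, the other marker tested, did not pass, and its mean was 39.6 CPM for control libraries and 30.4 CPM for overexpression libraries. Of 3 tested dendritic cell markers Clec9a and Ccr7 rose, with sums of 4.84 to 7.46 and 19.2 to 29.1 CPM. Of 10 tested fibroblast markers Pdgfra and Lum fell, and the sum was 989 to 3626 CPM with overexpression. None of the 3 endothelial, 7 T or NK cell and 4 mast cell markers tested passed, and the endothelial markers Tie1, Emcn and Cldn5 were at 0 in all 6 libraries. Their part in the complement results was not tested.

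**Figure D4:**
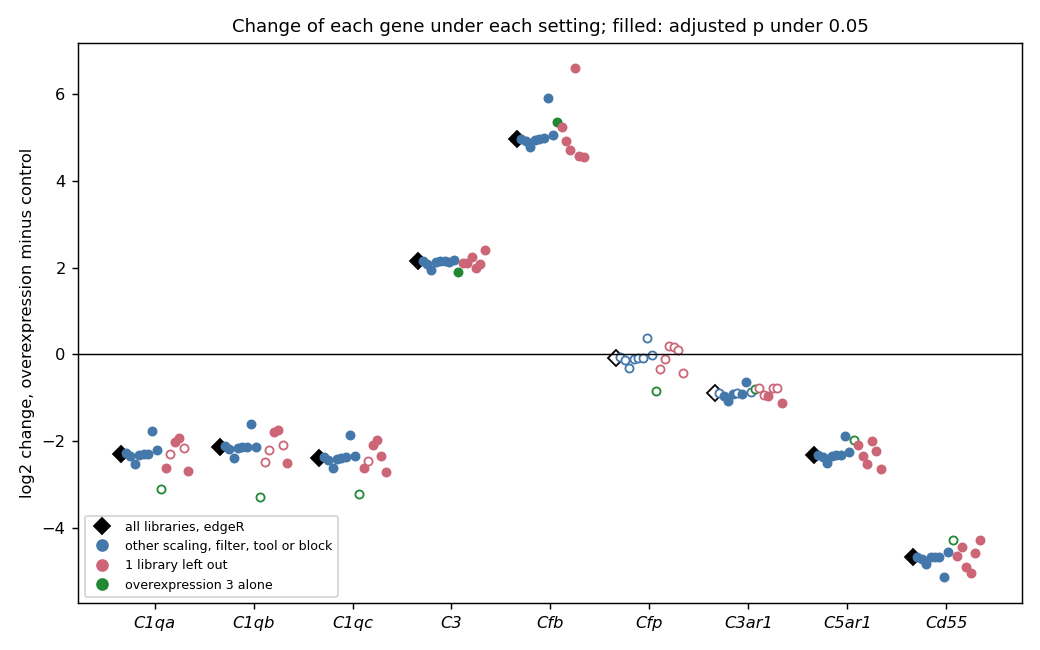
Log2 change of each gene (y axis) under the main test (black), 8 other settings of scaling, filter, tool or block (blue), with each library left out (red) and for overexpression 3 alone (green). Filled points passed at an adjusted p under 0.05. C3 and Cfb are filled throughout, and no gene that passed with all libraries crosses 0.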

How the data were processed

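Raw read counts per Ensembl gene were deposited for 6 libraries. Per the submitters' processing notes, mm10 was the build, and featureCounts 1.5.0-p3 and DESeq2 1.20.0 were among the tools. The aligner, annotation release and strand setting were not given in the sources used here, so reads of overlapping or antisense genes may be shared. Of 54532 identifiers, 54409 matched GENCODE mouse release 21 (same build), which gave symbols, coordinates and exon lengths.

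Counts were tested with edgeR 4.0.16 (R 4.3.3): TMM scaling, default low-count filter by group (13454 genes kept), robust quasi-likelihood fits with 1 term (the label), and Benjamini-Hochberg adjustment over all genes tested. CPM used TMM-scaled totals. The SE was taken from the log2 change and its F statistic. The test was checked on simulated data, where it called 72% of genes with a true log2 change of 2 and 66% at -2. It called 20% at 1, 2.2% at -1 and 0.12% at 0. Only 41 to 50 genes were tested at each size other than 0, and far more genes were called in the data. These rates may therefore differ from those of the test used here. Changes near 1 in size can fail to pass. Within-group library pairs differed by more than sampling noise (chi-square per degree of freedom 37.1 to 182). Alternatives included DESeq2 1.42.0 and limma 3.58.1. The members and lists were chosen with earlier results of these data known. Genes were named by rule: all 9 members, other complement genes that passed, copies or neighbours of members, some receptors, and the 3 genes most like C1qa and C3. Lyz2, C1s1, C1rb, Itgb2, Clu, C8g, Fcnb and the single markers with values were named after their values were seen. One alternative, overexpression 3 alone, was added after seeing the data. One complement gene that was tested is included in the counts but not reported here.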

Additional observations from a re-analysis of the deposited data

How the results depend on the processing

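C3 and Cfb were the members called higher, 2 in number, under all 15 alternatives. The members called lower numbered 5 with all libraries, and 2 to 6 when each library was left out in turn, with 2 without overexpression 2 and 3 without control 2. For overexpression 3 alone against the controls, added after seeing the data and with the spread taken from the controls, edgeR called 0 members lower (5 at an unadjusted p under 0.05), 1 other complement gene higher and 0 lower (8 at an unadjusted p under 0.05). The cause was not tested, but this comparison has fewer samples. Over all genes it also gave far fewer lower calls than the test with all libraries. With so few lower calls over all genes, their absence among the complement genes says nothing about these genes in particular. Other complement genes called higher numbered 4, and 2 with library size only, where the median over all genes shifted to -0.20 (log2), and 1 to 5 with each library left out. Those called lower numbered 6, and 1 to 8. No called change reversed its sign. Over all genes, 928 were called higher and 803 lower with edgeR, and 2442 and 2661 with limma-voom.

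With the replicate number as a replicate block 2 members were higher and 5 lower, and 3 and 8 other complement genes, with C2 lost (adjusted p = 0.051) and Clu and Fcna gained. Same-numbered libraries had correlations of their deviations of 0.094, 0.0053 and 0.33, so the numbers were not taken to pair them, and not every library correlated best with its own number. Low counts limit Cfb, C1s2, Vsig4 and the 32 genes not tested.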
